A study of Rattus norvegicus with 4 samples.

Results

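Myoepithelial cells form the basal layer of mammary ducts and alveoli, and 9 genes that mark their contractile apparatus and basal identity were followed through 4 rat mammary cancers. The genes are Tp63, Acta2, Myh11, Mylk, Cnn1, Tagln, Oxtr, Cdh3 and Cav1, chosen by name. All probe sets whose platform annotation names only one of them were taken, which gave 14 of the 31099 probe sets on the array and covered 9 of the 14217 genes with a probe set of their own. Another 5 probe sets that name Acta2 together with the cardiac actin gene Actc1 were left out. All 4 cancers form 1 group, and their hosts were female rats of the outbred Sprague-Dawley strain. The rats received 0.5 Gy of carbon ions (290 MeV/u, 6 cm spread-out Bragg peak) to the whole body at 7 weeks of age, and a diet with 23.5% corn oil followed from 9 weeks. Carbon ions are a densely ionising radiation. Unirradiated rats and normal gland are not analysed here, so the values describe differences between individual cancers and no effect of irradiation or diet.

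Mammary epithelium has an inner luminal layer that makes milk and an outer myoepithelial layer that squeezes it out. Oxytocin binds its receptor on the outer cells, calcium rises, myosin light-chain kinase phosphorylates the regulatory light chain of myosin, and filaments of smooth muscle actin contract. The transcription factor p63 maintains the basal state, and P-cadherin and caveolin-1 are surface proteins typical of it. The contractile genes are also used by vascular smooth muscle, pericytes and activated fibroblasts, and Cav1 also by endothelium and fat cells. In bulk tumour RNA, fewer cells of a type and less RNA per cell cannot be told apart.

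Each cancer was measured on 1 array, so no difference has a replicate check and no p-value is given. Levels are linear signal units as deposited, and differences are on the scale of log2(signal + 16), where 1 is 2-fold for well expressed genes. A gene or probe set is called expressed when its mean reached the median of all probe sets (7.81 log2, a signal of about 209). Different probe sets of 1 gene gave an error at the level of probes, though not of the RNA or the array. Over the 2330 genes for which 2 or more probe sets were expressed, the patterns of the 2 brightest differed by a root mean square of 0.18 log2 at the median and 0.34 at the 90th percentile. A gap between tumours under 0.34 is therefore described as unresolved. Array-wide offsets were small, since the median expressed gene in each tumour lay between -0.04 and 0.04 log2 of the average of the rest. The RNA control ratios of 3' over 5' signal lay between -0.02 and 0.04 log2 for GAPDH. For beta-actin the ratio was 0.48 in tumour 3 and 0.30 in each of the others, and its part in the low values of tumour 3 below was not tested.

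Of the 14 probe sets 12 passed the expression filter, and of the 9 genes 8 did, with Oxtr below it. The highest and lowest tumour were at least 2-fold apart on 5 of the 12 expressed probe sets, and this held for 12.6% of all expressed probe sets. Taking the brightest probe set per gene, 2 of the 8 expressed members (Tp63 and Myh11) had such a range, and 12.4% of all expressed genes did. Without tumour 3, these counts became 2 probe sets and 1 gene, when 9.41% of expressed probe sets and 9.50% of expressed genes had such a range. The median standard deviation (SD) of the 8 members was 0.36 log2, and that of all 9403 expressed genes was 0.21. Every one of the 8 had an SD above that of at least 66.1% of expressed genes, the value for Acta2. With so few members these counts are descriptions.

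**Figure D1:**
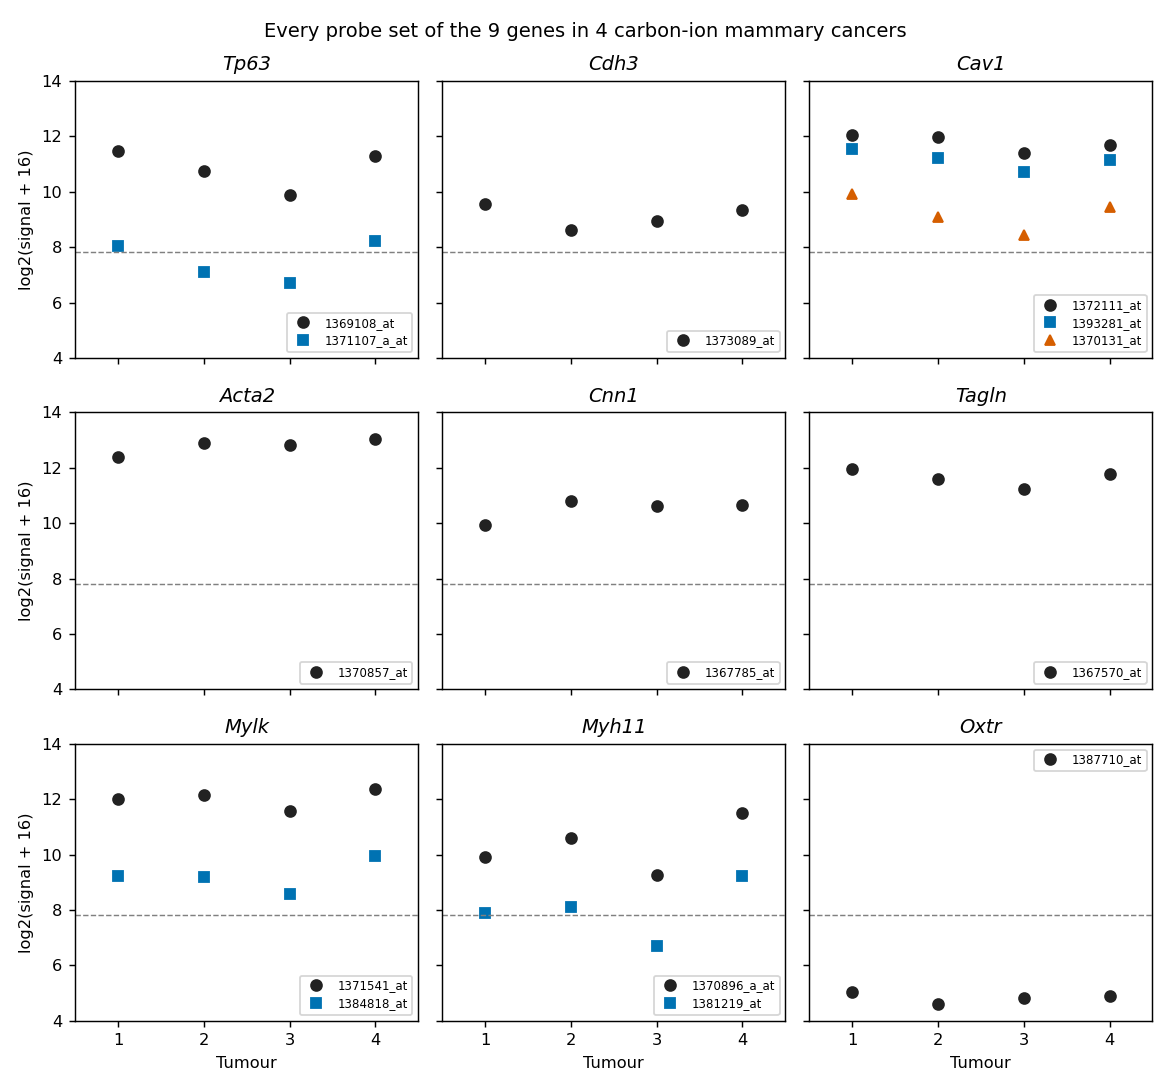
Level of every probe set of the 9 genes, as log2(signal + 16), in tumours 1 to 4. Each symbol is 1 probe set on 1 array, and the dashed line is the expression filter at 7.81. Tp63 and Myh11 spread most among the expressed genes, and Oxtr stays far below the line in all 4 tumours.

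The basal regulator Tp63, which encodes the transcription factor p63, was lowest in tumour 3 on both of its probe sets. On the bright probe set the signal was 2807, 1706, 941 and 2470 in tumours 1 to 4, a mean of 1981 ± 832 (SD, n = 4). Tumours 1 and 4 were 0.18 log2 apart and their order is unresolved, while tumour 3 lay 0.85 below its nearest neighbour, tumour 2. The weaker probe set measured 248, 121, 88.2 and 281 and passed the filter in tumours 1 and 4 only. It again gave the low pair as tumours 2 and 3. The range was 1.56 log2 on the bright probe set and 1.51 on the weaker one, and 4.68% of expressed genes had a larger SD than Tp63. Without tumour 3 the range of the bright probe set was 0.71.

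Cdh3, which encodes P-cadherin, the adhesion molecule that joins myoepithelial cells to each other, varied less and in another order. Its signal was 744, 382, 473 and 628 in tumours 1 to 4, or 557 ± 161 (SD, n = 4). Tumour 2, not tumour 3, was lowest, although the 2 were 0.30 log2 apart and their order is unresolved. The range of 0.93 did not reach 2-fold.

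Cav1 encodes caveolin-1, the coat protein of caveolae, the small pits of the cell surface. All 3 of its probe sets had their highest value in tumour 1 and their lowest in tumour 3. The brightest measured 4202, 3990, 2716 and 3271 in tumours 1 to 4, and the next 2950, 2352, 1662 and 2259. These probe sets had ranges of 0.63 and 0.82 log2. The dimmest had signals of 960, 527, 330 and 680 and a range of 1.50. The probe sets therefore shared the extremes but not the size of the difference. On the brightest the gap between tumours 1 and 2 was 0.07, and tumour 2 became the highest when the arrays were shifted to a common median.

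**Figure D2:**
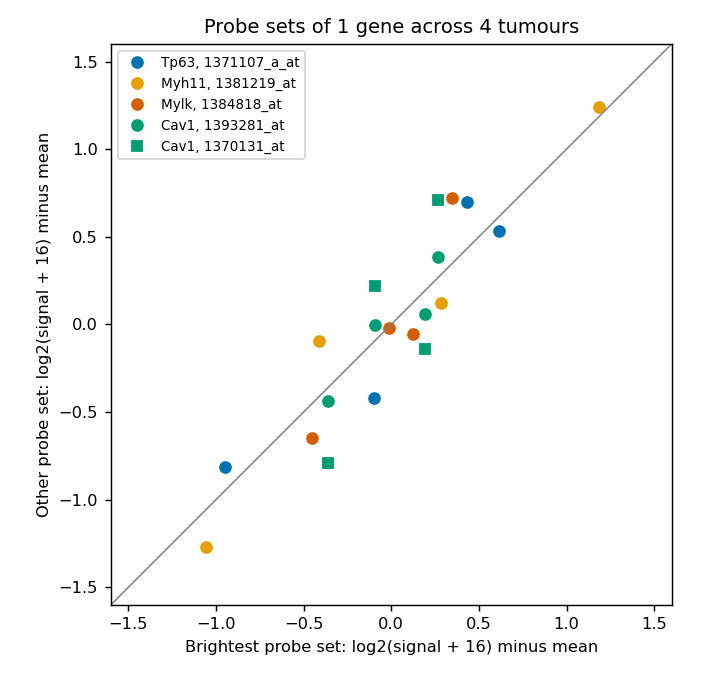
Level of each tumour relative to the mean of the 4, on the brightest probe set of a gene (horizontal axis) and on its other probe sets (vertical axis), in log2(signal + 16). Each point is 1 tumour on 1 pair of probe sets, and the line marks equal values. Points of Tp63, Myh11, Mylk and Cav1 lie near the line, and the dimmest Cav1 probe set departs most, with a root mean square difference of 0.38.

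Acta2 and Cnn1 showed the nearest patterns of any 2 members, and both were lowest in tumour 1. Acta2, smooth muscle alpha-actin, had a signal of 5414, 7659, 7194 and 8347 in tumours 1 to 4, or 7153 ± 1253 (SD, n = 4). The gap between tumour 1 and the next was 0.41 log2, and the order of tumours 2, 3 and 4 is unresolved. Its mean exceeded that of 99.3% of all probe sets. Array signals can lose contrast at high brightness, and whether its range of 0.62 is understated for that reason was not tested. Cnn1, calponin 1, an actin-binding regulator of contraction, measured 963, 1768, 1578 and 1594, with tumour 1 lower than the next by 0.70. Without tumour 1 the ranges were 0.21 for Acta2 and 0.16 for Cnn1. The 2 patterns differed by a root mean square of 0.15, yet 9.19% of all expressed genes lay nearer to Acta2 than Cnn1 did.

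The promoters of this pair are shown because smooth muscle genes are classically controlled through CArG boxes, the sites of serum response factor. They come from the RefSeq promoter table of build GRCr8, 250 bases before to 50 after the start of the gene. The Acta2 window is chr1:241172454-241172753 on the minus strand and the Cnn1 window is chr8:28908187-28908486 on the plus strand. Capitals mark CArG boxes in a loose form, with at most 1 of the 6 middle bases C or G. The form searched is symmetric, so 1 scan covers both strands.
Acta2: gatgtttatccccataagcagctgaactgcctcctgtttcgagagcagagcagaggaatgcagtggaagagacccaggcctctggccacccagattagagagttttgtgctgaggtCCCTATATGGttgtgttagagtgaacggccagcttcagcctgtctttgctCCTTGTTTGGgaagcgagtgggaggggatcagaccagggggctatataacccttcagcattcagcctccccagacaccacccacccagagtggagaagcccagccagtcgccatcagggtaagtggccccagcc
Cnn1: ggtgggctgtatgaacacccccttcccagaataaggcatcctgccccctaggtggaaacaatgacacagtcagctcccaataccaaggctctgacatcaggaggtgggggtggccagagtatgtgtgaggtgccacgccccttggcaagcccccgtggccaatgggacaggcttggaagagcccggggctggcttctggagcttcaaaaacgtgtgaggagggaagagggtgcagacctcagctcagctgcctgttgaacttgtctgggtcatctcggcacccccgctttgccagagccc

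The Acta2 window held 2 such matches, CCCTATATGG starting 134 bases and CCTTGTTTGG starting 84 bases before the start of the gene. The 2 do not overlap. Neither had all 6 middle bases A or T, the strict form. Of 33469 rat promoters of the same length, 9.42% held at least 1 match of the looser form, 0.846% at least 2, and 1.64% the strict form. Neither form was found in the Cnn1 window, nor in the 5 windows of Cav1, Mylk, Oxtr and Tp63. The table gave promoters for 6 of the 9 genes, with 2 windows for Cav1. A match is a description of letters and not evidence of binding.

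Tagln encodes transgelin (SM22), an actin-bundling protein of smooth muscle, and its order was not that of Acta2. Its signal was 3967, 3065, 2418 and 3452 in tumours 1 to 4, or 3226 ± 653 (SD, n = 4). Tumours 1 and 4 were highest, 0.20 log2 apart and so unresolved, and tumour 1 was thus not low as it was for Acta2 and Cnn1. The gap between tumour 3 and the next, tumour 2, was 0.34, about as large as the probe-level error. The pattern of Tagln was closer to Cav1, at a root mean square of 0.16, than to Acta2 (0.42) or Cnn1 (0.54).

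Mylk encodes the kinase that phosphorylates the myosin light chain and starts contraction. Its bright probe set measured 4147, 4562, 3051 and 5334 in tumours 1 to 4. The dimmer one gave 580, 566, 369 and 978. Both had their highest value in tumour 4 and their lowest in tumour 3, with ranges of 0.80 and 1.37 log2. On the bright probe set tumour 4 led tumour 2 by 0.22, so their order is unresolved there. The top gap on the dimmer one was 0.74. Tumours 1 and 2 were nearly level and changed places between the probe sets.

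Myh11, the smooth muscle myosin heavy chain, varied most of all members. The bright probe set had a signal of 943, 1534, 597 and 2887 in tumours 1 to 4, or 1490 ± 1008 (SD, n = 4). On the other probe set the signals were 221, 260, 89.2 and 582. Both placed the tumours in the order 4, 2, 1, 3, with a 4.83-fold and a 6.52-fold ratio of the highest to the lowest signal. The top gap was 0.91 log2 on the bright probe set and 1.12 on the other, both larger than the probe-level error. On the dimmer probe set the order of tumours 1 and 2 is unresolved. Ranges were 2.24 and 2.51 log2, and 1.82% of expressed genes had an SD above that of Myh11. On the dimmer probe set tumour 3 was under the level of the filter, so the larger ratio is uncertain.

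Oxtr encodes the oxytocin receptor, and its single probe set gave almost no signal. The values were 16.6, 8.28, 12.6 and 13.7 in tumours 1 to 4, and 6.89% of all probe sets on the array had a lower mean. The pseudocount of 16 is as large as these values, so their order has no meaning. No detection call was used here, so the data say only that this probe set gave a low signal, not that the receptor was absent.

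**Figure D3:**
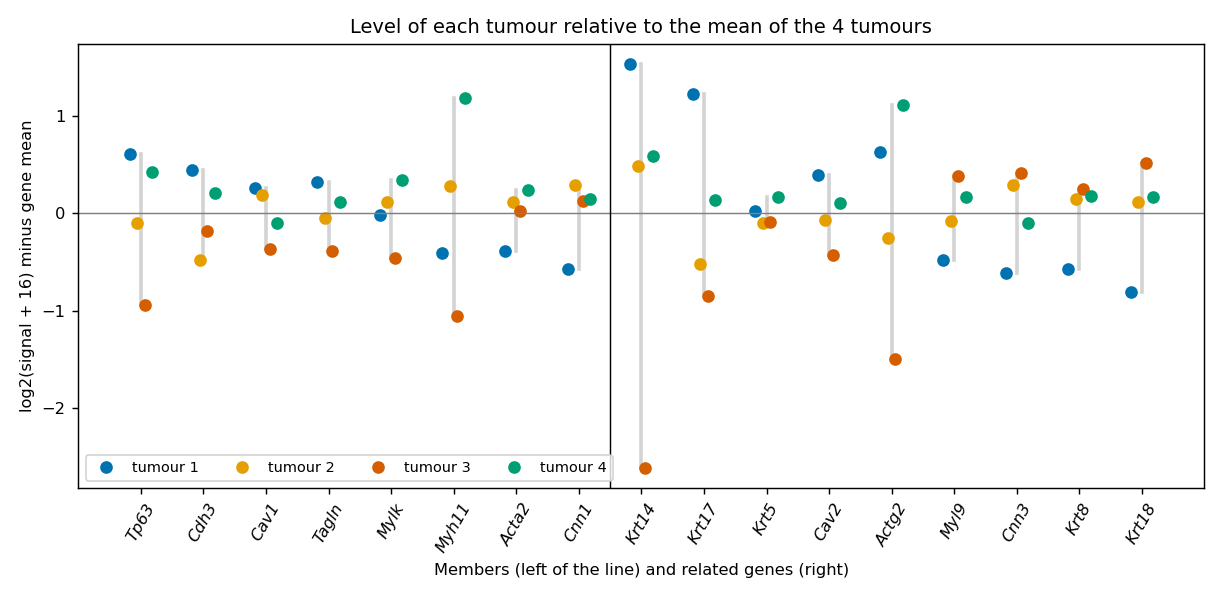
Level of each tumour as log2(signal + 16) minus the mean of the gene over the 4 tumours, for the 8 expressed members on the left and 9 related genes on the right. Points are single arrays and grey bars join the highest and lowest tumour. Tumour 3 has the lowest value for Tp63, Cav1, Tagln, Mylk and Myh11, by gaps of 0.27 to 0.85, and tumour 1 for Acta2 and Cnn1, while Krt14 reaches a range of 4.16.

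Across the 8 expressed members, all had a lower value in tumour 3 than in tumour 4, as did 45% of all expressed genes, and the median difference was 0.45 log2. The gap was unresolved for Cnn1 (0.015), Acta2 (0.21) and Cav1 (0.27), and reached 2-fold for Tp63 and Myh11. In the same pair of tumours 3.45% of all expressed genes differed that much, and the median gene differed by 0.04 in the opposite sense. Tumour 3 was the lowest tumour for 5 of the 8 members, and 21.1% of all expressed genes were lowest there, counting any gap however small. No member was highest in tumour 3, where 24.5% of expressed genes were highest. No member stood at least 2-fold above or below each other tumour on its brightest probe set, and 3.81% of expressed genes did so in some tumour. The median shift of the members, meaning a tumour minus the average of the remaining 3, was 0.17, 0.16, -0.50 and 0.30 in tumours 1 to 4. Without tumour 3 the shifts of tumours 1 and 2 became -0.02 and -0.08.

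Tumour 1 divided the members, each taken by its brightest probe set. Tp63, Cdh3 and Cav1 lay above the mean of the other tumours there, by 0.82, 0.60 and 0.35 log2. Of the 5 contractile members, only Tagln did (0.43), and 45% of expressed genes did. Acta2, Myh11 and Cnn1 lay at -0.51, -0.55 and -0.76, and Mylk at -0.02. On the dimmer Myh11 probe set the value was -0.13. The medians were 0.60 for the first 3 genes and -0.51 for the contractile 5, with 0.58 and -0.36 after quantile normalization. In tumour 4 all 5 contractile members were above the mean of the others, with a median of 0.32, and 47.5% of expressed genes were. In tumour 3 the median was -0.48 for Tp63, Cdh3 and Cav1, all of which lay below the mean of the others. The contractile median there was -0.52, but the genes were divided, with Tagln, Mylk and Myh11 below and Acta2 (0.04) and Cnn1 (0.18) above.

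**Figure D4:**
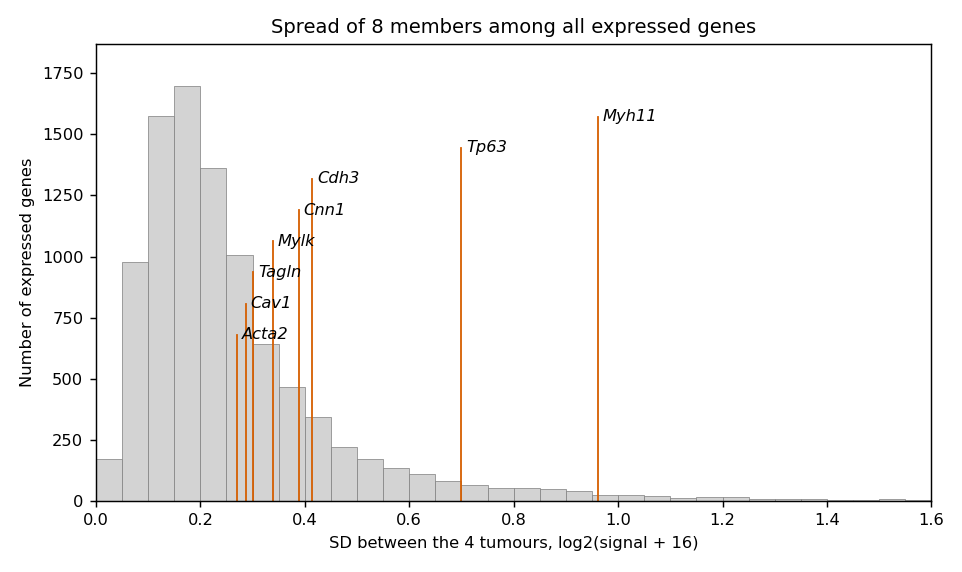
Number of expressed genes (vertical axis) by SD between the 4 tumours of log2(signal + 16) (horizontal axis, shown up to 1.6), with the SD of each of the 8 expressed members as a line. Acta2 has the smallest SD of the 8 (0.27) and Myh11 the largest (0.96). The height of a line carries no value.

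Other contractile genes that were expressed varied at the median like all expressed genes, and Actg2 was an exception with an SD of 1.15. Of 25 other contractile genes with a named probe set, 19 were expressed, and their median SD was 0.21, the same as that of all expressed genes. A 2-fold range was seen in 2 of the 19, and in 12.4% of all expressed genes. The median leaves out Lmod1, Synpo2, Pdlim3, Ppp1r12b, Ppp1r14a and Myocd, which were below the filter. Of these, Pdlim3 and Ppp1r14a had ranges of 1.13 and 2.19 log2 at low signal. Actg2, smooth muscle gamma-actin, measured 642, 338, 134 and 903 in tumours 1 to 4 and, like Myh11, was highest in tumour 4 and lowest in tumour 3. Cnn3, a calponin found outside muscle, had signals of 5392, 10126, 11039 and 7682 and, like Cnn1, was lowest in tumour 1. Myl9, the regulatory light chain that Mylk phosphorylates, ran the other way from Mylk in tumour 3, with 1921, 2554, 3507 and 3029. Srf, the factor that binds CArG boxes, measured 1311, 1720, 1806 and 1693. Its partner Myocd stayed below the filter at 42.5 to 59.5, while another partner, Mrtfa, was expressed at 520, 496, 386 and 506.

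Other basal genes varied more, and the keratins of the basal layer differed among themselves. Of 24 with a named probe set 23 were expressed, with a median SD of 0.35. A 2-fold range was seen in 8 of the 23, and in 12.4% of all expressed genes. Krt14 measured 5363, 2580, 286 and 2785 in tumours 1 to 4, a range of 4.16 log2. Krt5, its usual partner, stayed between 7192 and 8686. Krt17 had signals of 3712, 1094, 866 and 1729, and Cd44, a hyaluronan receptor, 1359, 634, 422 and 507. Krt14, Krt15 and the hemidesmosome collagen gene Col17a1 were lowest in tumour 3, as Tp63 was. Krt17, Cd44 and the Notch ligand gene Jag2 also had their lowest value there, but by gaps under 0.34. The other 2 genes with a 2-fold range, Sfn and Fgfr2, had their highest value in tumour 3, for Sfn by a gap under 0.34. Counting any gap, 10 of the 23 were lowest in tumour 3, against 21.1% of expressed genes, and 10 were highest in tumour 1, where 28% of expressed genes were highest.

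Genes around Cav1 and Oxtr were mostly even between tumours. Of 5 expressed caveola genes only Pacsin3, which encodes a membrane-bending protein, had a 2-fold range, with 526, 715, 1441 and 974 in tumours 1 to 4. Cav2, which assembles with caveolin-1, measured 3169, 2289, 1784 and 2595 and, like Cav1, had its lowest value in tumour 3. For Cav1 that gap was 0.27 on the brightest probe set, so unresolved, and 0.44 and 0.65 on the next and the dimmest. Which tumour was highest is unresolved for Cav2, and for Cav1 on its brightest and next probe sets. On the dimmest Cav1 probe set tumour 1 led by 0.49. None of 13 expressed genes of oxytocin signalling had a 2-fold range. Beside these 2 lists, 12.4% of all expressed genes had one. Plcb1, a phospholipase C that acts below the receptor, came nearest, with 385, 778, 545 and 494. Oxt, the hormone gene, was below the filter at 11.0 to 79.1.

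Markers of other cells that use these genes differed between the tumours too. Of 12 named pericyte and vascular smooth muscle genes 5 were expressed, and the summed signal of the list was 6556, 3689, 5378 and 5410 in tumours 1 to 4. Summed signals here and below cover every named gene of a list, also those under the filter. Cspg4, Kcnj8, Abcc9, Des, Ebf1, Higd1b and Pln were under the filter and none was at 0. Des, desmin of muscle cells, measured 190, 224, 237 and 177. Pdgfrb, the pericyte receptor, had 807, 240, 427 and 194. Alone among the 5 expressed genes, it had its lowest value in tumour 4, where Myh11 was highest. Its gap between tumours 2 and 4 was under 0.34, so their order is unresolved. Ndufa4l2 measured 247, 130, 242 and 394 and Notch3 807, 1127, 1299 and 1456. Both had their highest value in tumour 4, for Notch3 by a gap under 0.34. Rgs5, another pericyte gene, gave 846, 333, 575 and 688, and Mcam 2716, 1116, 1741 and 1541. Pdgfrb, Rgs5 and Mcam had their highest value in tumour 1, for Rgs5 by a gap under 0.34. The median shift of the list in tumour 4 was 0.33. The summed signal was lowest in tumour 2, where Myh11 was second highest. The part of these cells in the Myh11 values was not tested.

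Fibroblast genes had the largest differences of the lists shown, and their summed signal was lowest in tumour 4. Of 13 named genes 12 were expressed, and all 12 had a 2-fold range, as did 12.4% of all expressed genes. The summed signal was 58914, 46426, 56302 and 21305 in tumours 1 to 4. Col1a1, the collagen I gene, measured 5468, 6403, 9717 and 1997. In tumour 4, 1 of the 12 expressed fibroblast genes lay above the mean of the others, where 47.5% of all expressed genes did. All 5 contractile members lay above it there. The 1 fibroblast gene was Sfrp2, with 3631, 3588, 1039 and 4079. Like Myh11 it was highest in tumour 4, though by a gap under 0.34, and lowest in tumour 3. Of 11 endothelial genes 8 were expressed, with summed signals of 4449, 2876, 4574 and 3201, and Pecam1, at 129 to 233, was on average under the filter. Tumour 3, lowest on all Cav1 probe sets, was not low for the endothelial sum.

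Fat and skeletal muscle markers were mostly below the filter. Adipocyte genes were expressed in 3 of 9 cases. The summed signals of all 9 were 3359, 4308, 2916 and 2943 in tumours 1 to 4, and Adipoq stayed at 55.9 to 132. Skeletal muscle genes passed in 2 of 9 cases, with sums between 6083 and 6353 that came almost wholly from Myh1, at 5353 to 5687. No adipocyte or skeletal muscle marker was at 0.

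Luminal genes were lowest in tumour 1, the tumour that was also lowest for Acta2 and Cnn1. Of 15 named genes 13 were expressed. Counting any gap, 12 of the 13 were lowest in tumour 1, where 36.2% of all expressed genes were lowest. The summed signals of the 15 were 38427, 68283, 78768 and 68566 in tumours 1 to 4. Krt8 and Krt18, the luminal keratins, measured 5493 and 3984 in tumour 1, against 9048 to 9740 and 7596 to 10083 elsewhere. Cdh1, E-cadherin, was at 2867, 4432, 4864 and 5228. The median shift of the luminal list in tumour 1 was -0.86, against 0.60 for Tp63, Cdh3 and Cav1. For these lists of other cells, their part in the differences among the members was not tested.

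**Figure D5:**
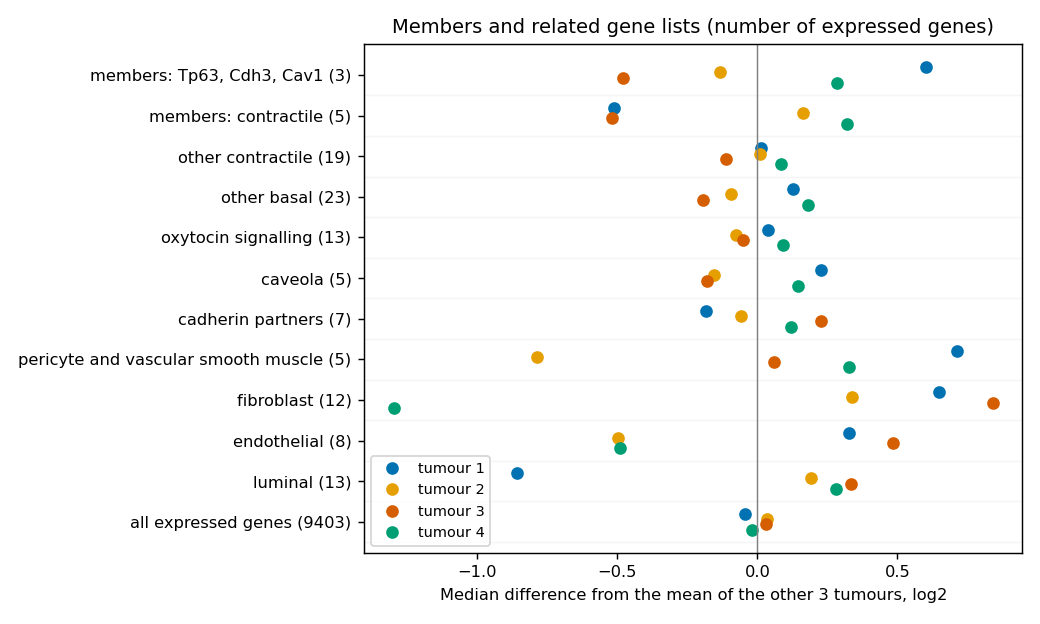
Median difference of each tumour from the mean of the other 3, in log2(signal + 16), for the members in their 2 sets, for related lists with at least 5 expressed genes and for all expressed genes. Each point is 1 tumour, and the number of expressed genes is in brackets. The contractile members and Tp63, Cdh3 and Cav1 lie on opposite sides of 0 in tumour 1, and fibroblast genes lie lowest in tumour 4.

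For Tp63 and Myh11, the 3 expressed genes of nearest pattern were listed by the root mean square difference over the 4 tumours after centring. Nearest to Tp63 were the planar polarity gene Prickle2 (0.09 log2), the myeloid receptor gene Clec7a (0.10) and Ifgga2l1 (0.10). Prickle2 measured 1531, 1004, 517 and 1220 in tumours 1 to 4. Nearest to Myh11 were the major histocompatibility complex class I genes RT1-N2 (0.14) and RT1-CE12 (0.22), then Inhca (0.29). RT1-N2 measured 556, 1036, 443 and 1716. With 4 points per gene, a pattern this near is a description only. Among members, Mylk was nearest to Myh11 at 0.56, and 0.947% of expressed genes lay nearer.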

How the data were processed

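Biotin-labelled RNA of 4 cancers was hybridised to 1-colour oligonucleotide arrays, 1 per cancer, after reverse transcription from an oligo-dT primer, which favours 3' ends, per the labels' protocols. The authors deposited 1 linear intensity value per probe set and cancer. Their software and scaling method are not given in the sources at hand, but a 2% trimmed mean of 500.1 on every array shows a common scale. Whether the cancers came from separate rats is unstated, and precision is limited by the number of arrays. Intensities were transformed as log2(value + 16) without further scaling (Python 3.11.15, pandas 2.3.3, numpy 2.4.6). Platform annotation named 1 gene for 20826 probe sets; 436 naming several were left out and 9831 had no entry. Genes took their brightest probe set. Of the 20826, 20758 had their gene identifier in the GRCr8 gene table of RefSeq and no symbol changed. Coordinates of the probe sets are not given, since no build is named. Calculations were tested on simulated data. The members, lists and rules were chosen with earlier results of these data known. Named genes are a selection of all members, the 3 expressed genes of largest range in each list, fixed anchor genes and the nearest patterns. Myocd, Srf, Mrtfa, Oxt, Cdh2, Ctnnb1, Notch3, Mcam and Sfrp2 were named after their values were seen. The same holds for other contractile genes below the filter and basal genes beyond that rule. Alternatives covered pseudocounts, scaling, the filter, averaging of probe sets and each tumour left out.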

Additional observations from a re-analysis of the deposited data

Results flagged for a closer look

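Among 14 member probe sets and 45 other named genes, 5 genes had 1 tumour far from the other 3, and no member probe set did. The measure was the gap of the extreme tumour to its neighbour divided by the whole range, set against the 95% critical value of Dixon for 4 samples, which chance passes in about 1 in 20 groups. It was passed by 5.63% of all expressed genes, so the 5 of 59 tested are near the background, and many of the named genes were chosen for a large range. Tumour 1 was low for Cldn3, a tight-junction gene (ratio 0.87, signal 579, 3992, 3552 and 3111 in tumours 1 to 4), and for Krt8 (ratio 0.871). Tumour 2 was low for Pecam1 (ratio 0.92, signal 227, 129, 223 and 233) and for Plcb4, a phospholipase C gene (ratio 0.868, signal 1271, 760, 1217 and 1306). Tumour 3 was low for Ctnnal1, an alpha-catenin-like gene (ratio 0.936, signal 1252, 1215, 653 and 1267).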

How the results depend on the processing

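Of 315 values recomputed under 11 alternatives, 291 were scored as kept. A kept value held its sign and moved by less than the spread between tumours, and a kept count changed by at most 1.5 times. For a median SD the spread was that SD itself, so only a change as large as the value was scored as moved. For the median member shifts the limit was 0.36 log2, above the shifts of tumours 1, 2 and 4 themselves. These limits are wide, so the number kept is a loose description. No paired analysis was possible because all samples form 1 group. Leaving out 1 tumour at a time gave 1 to 2 member genes and 2 to 5 member probe sets with a 2-fold range, and 5.82% to 10.2% of expressed genes and 5.85% to 10.3% of expressed probe sets. The median member shift then ranged from -0.02 to 0.25 in tumour 1 and from -0.08 to 0.27 in tumour 2, and both changed sign without tumour 3, to -0.016 and -0.075. Without a filter 22.2% of probe sets, 6 of the 14 member probe sets and 21.1% of genes had a 2-fold range. Restricted to the brightest 25% of features, 2 of 8 member probe sets did, with 9.21% of all probe sets. Averaging probe sets changed the median SD of adipocyte genes to 0.57, against 0.25. Shifting the arrays to a common median moved the median expressed gene to -0.13, 0.10, 0.11 and -0.08 in tumours 1 to 4. Apart from the constructions named (fewer samples, another set of genes tested), the cause was not tested. Low signal limits Oxtr, whose range was 0.92 log2 with a pseudocount of 1 and 0.16 with 64.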

Other observations

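Cdh3 partners, cadherins and the proteins that link them to the cytoskeleton, did not share 1 pattern. Counting any gap, 5 of the 7 expressed genes of that list had their lowest value in tumour 1, as did 36.2% of expressed genes. Cdh1 and Jup were among the 5, with gaps above 0.34, and the gaps of the others were under it. Vcl, vinculin, was highest in tumour 1, with 2832, 1884, 1802 and 1852 in tumours 1 to 4, as Cdh3 was by value. Jup, which encodes plakoglobin, measured 2507, 3742, 5516 and 5385 in tumours 1 to 4. Ctnnb1, beta-catenin, measured 7729, 8198, 9573 and 8658. The neural cadherin gene Cdh2 stayed below the filter, at 11.1 to 107.

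The 5 probe sets that name both Acta2 and Actc1 gave signals between 6.23 and 392. The one with the highest signals measured 229, 392, 159 and 327 in tumours 1 to 4, and another 295, 341, 207 and 237. Both had their lowest value in tumour 3, for the second by a gap under 0.34. None of the 5 was lowest in tumour 1, where the probe set that names Acta2 alone was lowest.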
